A study of Mus musculus with 24 samples.

Results

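ERVL is a family of endogenous retroviruses, and the deposited tables count RNA-seq reads for 113 of its subfamilies among 1146 repeat subfamilies in all. The 113 were taken as the rows whose family is given as ERVL and whose class is LTR, that is, by their names. They hold 2 names that make up the mouse element MERVL, namely MERVL-int, its internal part, and MT2_Mm, its long terminal repeat (LTR). A further 6 names start with MERVL or MT2 and are called MERVL relatives here, 10 are MLT2 repeats, 57 are named LTR, 17 MER and 3 RMER, 14 are other internal parts and 4 remain. ERVL-MaLR, which holds 108 subfamilies, is listed by the tables as a separate family and was used for comparison.

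The study measured RNA in mouse embryonic stem (ES) cells of the KH2 line, in 24 libraries that form 12 groups of 2. Every line carries a transgene for DUX behind a promoter that responds to doxycycline (TRE_DUX in the titles), so the controls carry it too. Each line was measured without doxycycline (DOX) and with DOX for 16 h, on gelatin or feeder cells per the labels' protocols. The comparisons bear on how the loss of DUXBL, TRIM24 or TRIM33 changes the response to DUX. The plain set holds wild type (WT) and DUXBL-KO. The pLV2 set holds a first and a second WT line, TRIM24-KO and TRIM33-KO, and the labels neither explain pLV2 nor tie either WT line to a knockout. In 8 libraries of the pLV2 set the treatment tag goes against the title, in 4 WT libraries with DOX and in 4 knockout libraries without it, and the titles were followed. The labels do not say how many clones stand behind a line or whether the 2 libraries of a group came from separate cultures, so p-values measure only the spread between these libraries.

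MERVL entered the mouse lineage as a retrovirus and survives as many copies, each an internal part that codes for Gag and Pol between a pair of MT2_Mm repeats. Its RNA is abundant in the 2-cell embryo, when the embryonic genome is first transcribed, and in the rare 2-cell-like cells of ES cultures, and many genes of that stage start from an MT2_Mm repeat that serves as their promoter. DUX is a homeodomain protein of that stage which binds MT2_Mm and turns on its transcription, DUXBL is a related protein, and TRIM24 and TRIM33 are chromatin readers of the same protein family as TRIM28. MT2A, MT2B and MT2C_Mm are LTRs related to MT2_Mm, and MLT2, LTR and MER names in the family are mostly older insertions shared by many mammals.

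Gene counts per library ranged from 11784696 to 19136869 and repeat counts from 1128600 to 3571107, and values below are CPM, in which the counts of each library are divided by its effective size, the total of gene counts times the TMM factor. The effective size was 7868784 against 13311913 gene counts in TRIM24-KO with DOX replicate 2. Because subfamilies differ in copy number and length, levels are compared between libraries and not between subfamilies. A single transcript, CT010467.1, held 30.4% of the gene counts in TRIM24-KO with DOX replicate 2 and 12.8% in TRIM33-KO with DOX replicate 2, against at most 1.30% elsewhere. Between the 2 libraries of a group, chi-square per gene was 327 in TRIM24-KO with DOX and 115 in TRIM33-KO with DOX. In the other pLV2 groups it was 3.28 to 12. The groups of a set share a single estimate of spread, so SEs may be too small for those knockout groups. Dux (Duxf3 in the tables) had 0 to 2 counts per library without DOX and 20 to 110 with DOX. The counts do not check every label: Trim24 stood at 120 to 137 CPM in the line labelled TRIM24-KO against 94.5 to 100.2 CPM in the first WT pLV2 line and 165 to 199 CPM in the second, and Duxbl1 had 169 and 91 counts with DOX in the line labelled DUXBL-KO against 139 and 59 in WT. Trim33 stood at 16.9 to 21.4 CPM in the line labelled TRIM33-KO against 85.2 to 140 CPM in the WT pLV2 lines. All 10 ES cell markers were detected in every library, summing to 4795 to 6311 CPM without DOX and 4228 to 6147 CPM with it. The 10 markers of feeder fibroblasts summed to 12.9 to 40.7 CPM without DOX and 21.6 to 41.3 CPM with it, with 3 to 6 of them at 0 in a library. In each pLV2 line 1 or 2 of the 5 feeder markers tested rose with DOX and 0 or 1 fell. Of the 10 ES cell markers 0 to 2 rose there and 3 to 5 fell. In WT and DUXBL-KO no marker of either list was called with DOX. The 7 markers of the 2-cell-like state summed to 0.310 to 4.597 CPM without DOX and 727 to 7330 CPM with it.

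MERVL-int RNA was low in every library without DOX and rose by 114-fold to 720-fold with DOX in the 6 lines. In WT, MERVL-int stood at 141 and 148 CPM without DOX and at 23000 and 9902 CPM with it. In the line labelled DUXBL-KO it stood at 185 and 239 CPM without DOX and at 37436 and 33661 CPM with it. The libraries with and without DOX did not overlap in either line, and the 2 WT libraries with DOX lay further apart than those of the DUXBL-KO line.

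In the first WT pLV2 line MERVL-int went from 137 and 132 CPM to 16217 and 19775 CPM, and in the second from 102 and 91.3 CPM to 57014 and 44909 CPM. In the line labelled TRIM24-KO it went from 106 and 132 CPM to 23464 and 32470 CPM. In the line labelled TRIM33-KO it went from 128 and 102 CPM to 89941 and 75361 CPM, the highest values of all 24 libraries. Without DOX all 8 pLV2 libraries lay between 91.3 and 137 CPM, whereas with DOX both libraries of the second WT line and of TRIM33-KO lay above both libraries of the first WT line and of TRIM24-KO.

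MT2_Mm, the LTR that holds the promoter of MERVL, ranked the lines within each set as MERVL-int did with DOX. It stood at 32.9 to 78.3 CPM in the 12 libraries without DOX. With DOX it reached 5505 and 2358 CPM in WT, 8160 and 7422 CPM in DUXBL-KO, 5100 and 6348 CPM in the first WT pLV2 line, 7401 and 9907 CPM in TRIM24-KO, 15658 and 12664 CPM in the second WT pLV2 line and 24381 and 20850 CPM in TRIM33-KO. The lowest library with DOX lay far above the highest without it.

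**Figure D1:**
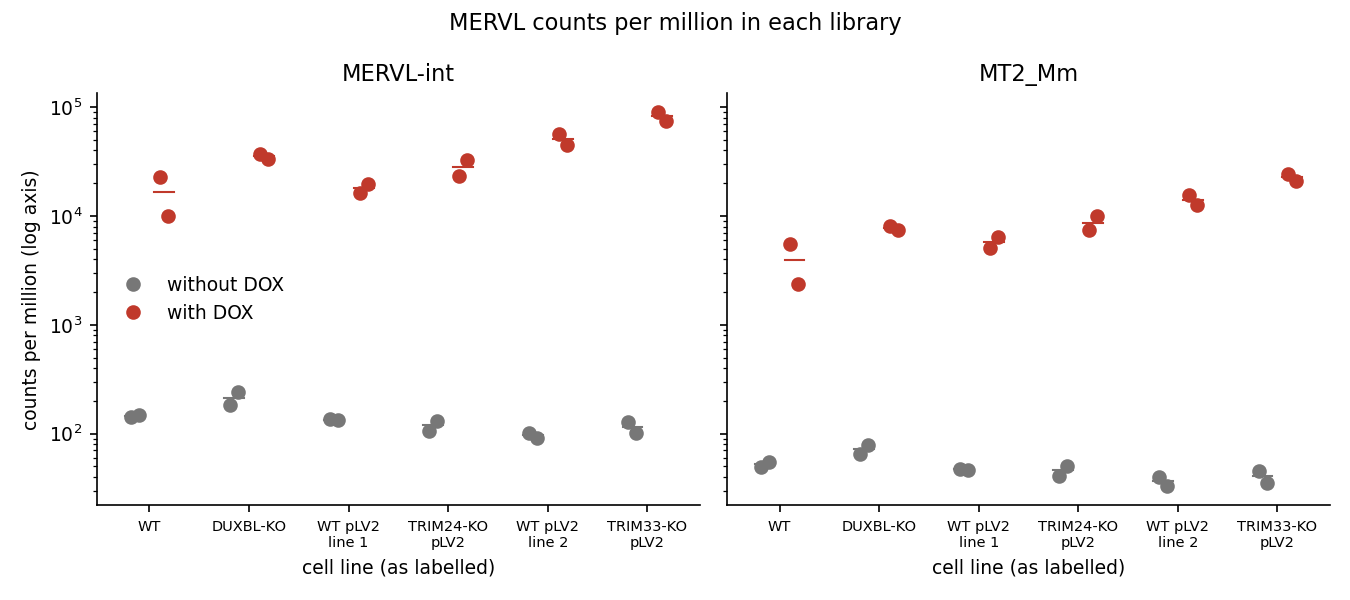
CPM of MERVL-int and MT2_Mm in each library on a log axis, by line, with libraries without DOX in grey, libraries with DOX in red and the mean of each group as a short line. Every red point lies above every grey point, and the red points of the second WT pLV2 line and of TRIM33-KO lie highest.

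The log2 fold change of MERVL-int with DOX was 6.83 in WT (standard error, SE, 0.438, adjusted p = 5.03e-04), a 114-fold rise, and 7.39 in DUXBL-KO (SE 0.449, adjusted p = 3.28e-04), a 168-fold rise. In the pLV2 set it was 7.07 in the first WT line (SE 0.203), 7.88 in TRIM24-KO (SE 0.211), 9.04 in the second WT line (SE 0.221) and 9.49 in TRIM33-KO (SE 0.225), with adjusted p-values from 6.21e-15 to 1.18e-13. These are rises of 134-fold, 235-fold, 527-fold and 720-fold. The fold changes of MT2_Mm were 6.23, 6.76, 6.93, 7.56, 8.59 and 9.13 in the same order of lines, with SEs from 0.206 to 0.431 and adjusted p-values from 6.21e-15 to 5.03e-04. In bulk RNA a larger number of responding cells and more RNA per cell cannot be told apart. All p-values are from edgeR's quasi-likelihood test, 2-sided, adjusted over all repeat subfamilies tested, with a threshold of 0.05.

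MERVL-int had the largest log2 fold change of all called repeat subfamilies in WT, DUXBL-KO, the second WT pLV2 line and TRIM33-KO. It came second in the first WT pLV2 line, after ERVB4_3-LTR_MM, and second in TRIM24-KO, after the ERVL subfamily MLT2E, whose 2 libraries without DOX held 1 and 0 counts. The 95% interval of MERVL-int ran from 5.81 to 7.86 in WT and from 9.01 to 9.97 in TRIM33-KO. Of the 93 tested ERVL subfamilies other than the MERVL pair, 90 to 92 had an interval that ended below the start of the MERVL-int interval in each of the 6 lines. The others were MLT2E, LTR91 and LTR108b_Mam, which were singled out after their values were seen, and the latter pair had at most 27 and 14 counts in any library.

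MERVL went from a small part of the ERVL RNA counted to nearly all of it. Without DOX, MERVL-int and MT2_Mm together held 11.1% ± 0.706 (SD, n = 2) of the ERVL counts in WT, 14.2% ± 0.812 in DUXBL-KO, 14.8% ± 0.235 in the first WT pLV2 line, 13.2% ± 1.48 in TRIM24-KO, 10.7% ± 0.475 in the second WT pLV2 line and 11.9% ± 1.81 in TRIM33-KO. With DOX the shares were 88.0% ± 3.80, 92.2% ± 0.0350, 89.7% ± 0.567, 91.1% ± 0.475, 92.8% ± 0.260 and 93.3% ± 0.383 in that order. Over the single libraries, the shares ran from 10.4% to 14.9% without DOX and from 85.3% to 93.5% with it.

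Of all counts, genes and repeats together, the MERVL pair held 0.0131% to 0.0284% per library without DOX. With DOX it held 1.75% ± 0.930 (SD, n = 2) in WT, 3.51% ± 0.229 in DUXBL-KO, 2.11% ± 0.245 in the first WT pLV2 line, 2.44% ± 0.265 in TRIM24-KO, 5.53% ± 0.718 in the second WT pLV2 line and 7.19% ± 1.53 in TRIM33-KO. MERVL-int gave 2.53 to 3.06 counts for each MT2_Mm count without DOX. With DOX this ratio was 4.18 to 4.59 in the plain set and 3.12 to 3.69 in the pLV2 set, so that it was higher in every library with DOX than in any without it. These ratios were not tested.

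The 6 MERVL relatives moved in the same direction as MERVL but by less. MERVL_2A-int, a related internal part, stood at 113 and 120 CPM in WT without DOX and at 639 and 338 CPM with it. In TRIM33-KO it stood at 76.4 and 74.3 CPM without DOX and at 2259 and 1876 CPM with it. Groups with and without DOX did not overlap in either line. Near-identical subfamilies can share reads, and in WT replicate 1 with DOX MERVL-int had 383360 counts beside 10649 for MERVL_2A-int. The part of MERVL reads in the rises of the relatives was not tested.

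The log2 fold change of MERVL_2A-int was 2.07 in WT (SE 0.275, adjusted p = 0.012), 2.89 in DUXBL-KO (SE 0.283, adjusted p = 0.00166), 2.97 in the first WT pLV2 line, 3.21 in TRIM24-KO, 4.10 in the second WT pLV2 line and 4.78 in TRIM33-KO (SE 0.146, adjusted p = 8.71e-14). That is a 4.2-fold rise in WT and a 27.4-fold rise in TRIM33-KO. The order of the lines was that of MERVL-int within the pLV2 set. The WT call was lost without WT replicate 1 or 2 lacking DOX (adjusted p = 0.131 and 0.112).

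The related LTRs MT2B1, MT2C_Mm and MT2B2 rose in all 6 lines. MT2B1 stood at 75.7 to 156 CPM in libraries without DOX and at 252 to 1732 CPM with it, and its log2 fold change went from 1.60 in WT (SE 0.263, adjusted p = 0.0177) to 4.24 in TRIM33-KO (SE 0.145, adjusted p = 3.69e-13). MT2C_Mm had log2 fold changes from 1.20 in WT (adjusted p = 0.0227) to 4.04 in TRIM33-KO. MT2B2 had 0.81 in WT (adjusted p = 0.0401) and 3.24 in TRIM33-KO, and its 3.25 in TRIM24-KO rested on libraries at 165 and 690 CPM, of which the higher is the one with the large share of CT010467.1. With 1 library left out in turn this value ranged from 1.89 to 3.93, and the part of that transcript in it was not tested. With only the compared groups in the fit, the WT calls of MT2B1, MT2C_Mm and MT2B2 were lost (adjusted p = 0.0511, 0.0524 and 0.068). That of MT2B2 was also lost with p adjusted over genes and repeats together (0.081). In WT the calls of these LTRs were lost without WT replicate 1 lacking DOX (adjusted p = 0.147, 0.147 and 0.196) and without replicate 2 lacking DOX (adjusted p = 0.121, 0.115 and 0.167). Those of MT2C_Mm and MT2B2 were also lost without WT replicate 1 with DOX (adjusted p = 0.0728 and 0.227).

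MT2B and MT2A, the remaining relatives, rose in 5 of the 6 lines. In WT, MT2B had a log2 fold change of 0.49 (SE 0.148, adjusted p = 0.0843) and MT2A of 0.41 (SE 0.153, adjusted p = 0.149), and neither passed the test. Both passed without the filter on low counts (adjusted p = 0.000739 for MT2B and 0.0163 for MT2A), and MT2B also with DESeq2 (0.0353) and without WT replicate 2 with DOX (0.0242). In DUXBL-KO they had 0.69 (adjusted p = 0.0129) and 0.84 (adjusted p = 0.00731), and the MT2B call was lost without DUXBL-KO replicate 1 lacking DOX (adjusted p = 0.0879) or with DOX (adjusted p = 0.0742). With scaling factors from the repeats alone, both DUXBL-KO calls were lost (MT2B 0.35, adjusted p = 0.206, and MT2A 0.50, adjusted p = 0.0779). In TRIM33-KO they had 2.78 and 2.01. Summed over the 6 relatives, levels went from 640 ± 16.1 to 1468 ± 487 CPM in WT and from 438 ± 5.78 to 5741 ± 475 CPM in TRIM33-KO (SD, n = 2).

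**Figure D2:**
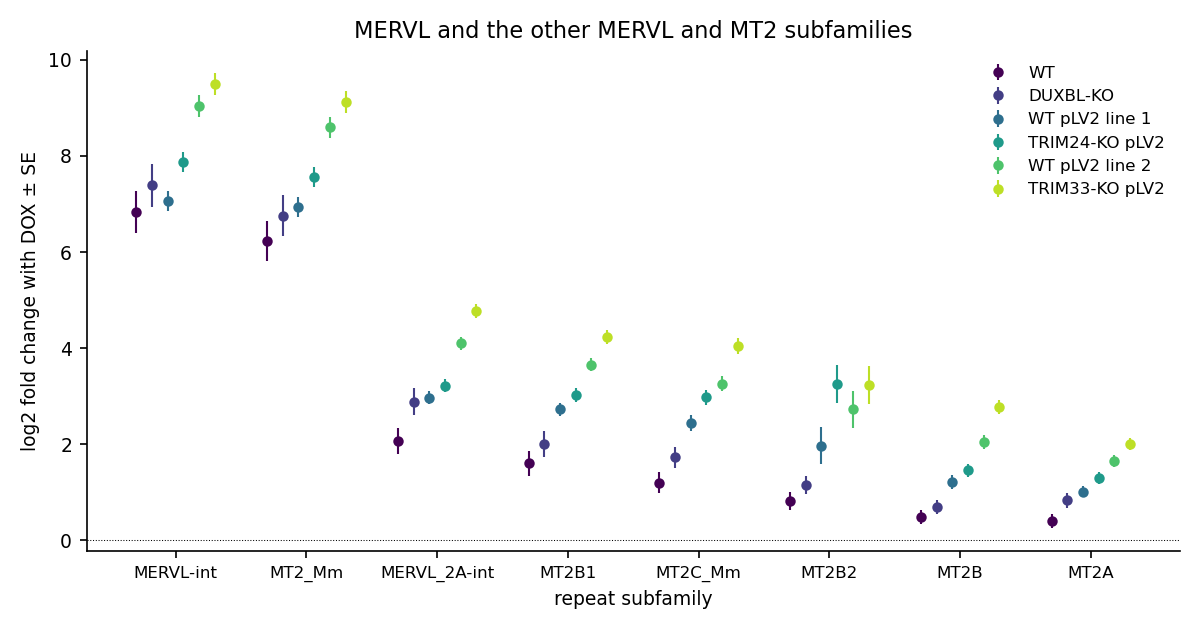
Log2 fold change with DOX, with its SE, of the 8 subfamilies whose names start with MERVL or MT2, in each line. MERVL-int and MT2_Mm lie between 6.23 and 9.49, and the 6 others between 0.41 and 4.78.

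MLT2 repeats, LTRs of old mammalian ERVL insertions, also held large rises. MLT2E had 3 to 7 counts in each plain library without DOX and 55 to 164 with it, with log2 fold changes of 3.61 in WT (SE 0.461, adjusted p = 0.012) and 5.49 in DUXBL-KO (SE 0.484, adjusted p = 0.00154). In the second WT pLV2 line it had 1 and 0 counts without DOX and 271 and 169 with it, at least 101-fold higher against a floor of 3 counts in each library. On the same floor it was at least 89.4-fold higher in TRIM24-KO and at least 172-fold higher in TRIM33-KO. MLT2B1 rose in all 6 lines as well, with log2 fold changes of 1.05, 1.37, 1.95, 1.76, 2.69 and 3.34 in the order WT, DUXBL-KO, first WT pLV2 line, TRIM24-KO, second WT pLV2 line and TRIM33-KO. At the other end, MLT2B5 passed the test in the first WT pLV2 line (1.01, SE 0.418, adjusted p = 0.046), and its value in TRIM33-KO was 0.75 (adjusted p = 0.065). Of the 10 MLT2 repeats, 2 rose in WT, 4 in DUXBL-KO, 10 in the first WT pLV2 line, 8 in TRIM24-KO, 9 in the second WT pLV2 line and 9 in TRIM33-KO, and none fell. The shares of all tested repeats that rose were 8.97%, 29.3%, 61.2%, 56%, 71.8% and 77.4% in that order.

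Outside MERVL, its relatives and MLT2, ERVL-B4-int, an internal part, and the LTRs LTR16A1 and RLTR35B_MM rose in all 6 lines. ERVL-B4-int stood at 17.6 and 14.9 CPM in WT without DOX and at 53.3 and 35.4 CPM with it. In TRIM33-KO it stood at 11.5 and 11.9 CPM without DOX and at 142 and 124 CPM with it. Its log2 fold change was 1.45 in WT (SE 0.197, adjusted p = 0.012) and 3.51 in TRIM33-KO (adjusted p = 3.06e-11), and the groups did not overlap. The WT call was lost without WT replicate 1 or 2 lacking DOX (adjusted p = 0.131 and 0.115).

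LTR16A1 had few counts, with 1.16 to 2.83 CPM in libraries without DOX and 4.05 to 30.2 CPM with it. Its log2 fold change was 1.62 in WT (SE 0.385, adjusted p = 0.0421), 2.55 in DUXBL-KO and 3.72 in TRIM33-KO (adjusted p = 9.85e-11). RLTR35B_MM had 1.32 in WT (SE 0.303, adjusted p = 0.0392) and 3.06 in TRIM33-KO. The WT calls of LTR16A1 and RLTR35B_MM were lost with p adjusted over genes and repeats together (adjusted p = 0.0858 and 0.0771). They were also lost with only the compared groups in the fit (0.0959 and 0.0915), and that of RLTR35B_MM with factors from repeats only (0.0748). Both WT calls were lost without WT replicate 1 lacking DOX (adjusted p = 0.181 and 0.147), without replicate 2 lacking DOX (0.205 and 0.217) and without replicate 1 with DOX (0.191 and 0.227).

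Across the family, as over all tested repeats, more subfamilies rose with DOX in DUXBL-KO than in WT. Likewise more rose in the second WT pLV2 line and TRIM33-KO than in the first WT pLV2 line and TRIM24-KO. These counts were not tested against each other. Of the 113 members, 95 had enough counts to be tested in each set and 92 in both, and HERVL32-int had no count in any library. A filter on low counts of this kind keeps members that are high in 1 group, so the counts below describe the tested members alone. In WT, 15 of 95 rose (15.8%) against 8.97% of all 981 tested repeat subfamilies, and the median log2 fold change was 0.21 for ERVL and 0.20 for all repeats. In DUXBL-KO, 26 rose (27.4%) against 29.3%, with medians of 0.42 and 0.32. No tested ERVL subfamily fell in either line, and 23 and 39 had an unadjusted p below the threshold (24.2% and 41.1%, against 25.4% and 38.7% of all repeats). Without WT replicate 1 or 2 lacking DOX, 2 rose in WT (1.98% and 2.02%, against 0.199% and 0.2% of all repeats), and without WT replicate 1 with DOX 6 rose (5.94% against 2.39%). Without DUXBL-KO replicate 1 lacking DOX, 14 rose in that line (13.9% against 11.2%), and without its replicate 1 with DOX 15 rose (15% against 13.4%), so that the ERVL share then lay above that of all repeats.

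In the pLV2 set, 53 rose in the first WT line (55.8%) against 61.2% of all 965 tested repeats, with medians of 0.66 and 0.59. In TRIM24-KO 49 rose (51.6%) against 56% and 2 fell against 0.725% of all repeats, with medians of 0.72 and 0.56. In the second WT line 63 rose (66.3%) against 71.8%, with medians of 1.08 and 0.95. In TRIM33-KO 68 rose (71.6%) against 77.4% and 1 fell against 1.04%, with medians of 1.31 and 1.21. On this scale, set by the genes, the ERVL share lay below that of all repeats in each of these lines. Subfamilies with at most 3 counts in each library of 1 group were then set at their bound, and any that low in both groups were left out. The ERVL median so obtained was 0.64 in the first WT line and 0.65 in TRIM24-KO.

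The share that rose among repeats was far above that among genes in every line. Genes rose at 2.86% and fell at 0.116% in WT, and at 4.52% and 0.399% in DUXBL-KO. They rose at 9.96% and fell at 6.12% in the first WT pLV2 line, and at 11.4% and 4.88% in TRIM24-KO. In the second WT pLV2 line the shares were 12.7% and 13.8%, and in TRIM33-KO 16.4% and 20%. The median of all repeats was thus above 0 on a scale set by the genes. When the scaling was set from the repeats instead, the log2 fold changes of the genes shifted. The median shift per gene was -0.21 in WT, -0.36 in DUXBL-KO and as far as -1.22 in TRIM33-KO. On that scale 26 ERVL subfamilies rose and 4 fell in the first WT pLV2 line, 25 and 13 in TRIM24-KO, 29 and 13 in the second WT pLV2 line, and 32 and 19 in TRIM33-KO. The share of ERVL that rose was then 9.28% against 5.08% of all repeats in WT, 16.5% against 11.8% in DUXBL-KO, 28% against 24.1% in the first WT pLV2 line, 26.9% against 25.8% in TRIM24-KO, 31.2% against 34.2% in the second WT pLV2 line and 34.4% against 36.2% in TRIM33-KO. It thus lay above that of all repeats in DUXBL-KO, the first WT pLV2 line and TRIM24-KO, the reverse of the order on the scale set by genes, and the order of the other 3 lines was kept. The MERVL pair and its 6 relatives still had positive log2 fold changes on it in all 6 lines, with MERVL-int at 8.27 in TRIM33-KO. The calls of MT2B2 in WT (adjusted p = 0.108) and of MT2A and MT2B in DUXBL-KO (0.0779 and 0.206) were lost on it.

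By share and without a test, large rises were more frequent in ERVL than in repeats as a whole, though close to them in TRIM33-KO. In WT the 5 were MERVL-int, MT2_Mm, MERVL_2A-int, MLT2E and MER70A. In other lines they also include members almost without counts before DOX, such as LTR91, which the filter keeps through the libraries with DOX. Rises of at least 2 on the log2 scale were made by 5.26% of tested ERVL subfamilies in WT against 1.83% of all repeats, and by 9.47% against 4.79% in DUXBL-KO. In the pLV2 set the shares were 13.7% against 7.05% in the first WT line, 14.7% against 9.74% in TRIM24-KO, 25.3% against 18.7% in the second WT line and 29.5% against 27.5% in TRIM33-KO. Among the 10 called subfamilies with the largest log2 fold change in a line, 3 to 5 were ERVL.

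The closest family by name, ERVL-MaLR, whose LTRs are distant relatives of the ERVL type, responded in a larger share of its subfamilies in every line but WT. In WT 11.1% of its 90 tested subfamilies rose, in DUXBL-KO 46.7%, in the first WT pLV2 line 79.1% of 91, in TRIM24-KO 74.7%, in the second WT pLV2 line 80.2% and in TRIM33-KO 89%. ERVK, which includes the IAP elements, had shares of 10%, 40.4%, 69.7%, 70.1%, 86% and 88.9% in that order. ERV1, the gammaretrovirus type, had 8.49%, 29.2%, 55.3%, 57.3%, 70.9% and 77.7%. The ERVL share was the highest of the 4 families in WT, and it lay below those of ERVL-MaLR and ERVK in the other 5 lines. Shares were not tested against each other.

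**Figure D3:**
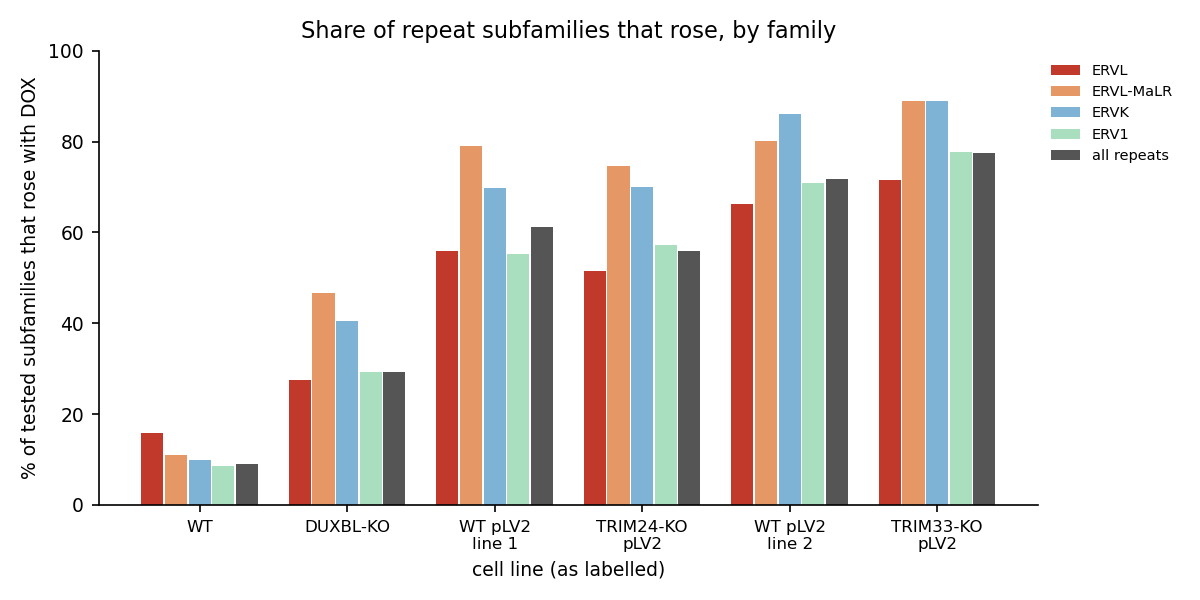
Share of tested subfamilies that rose with DOX, in percent, for ERVL, ERVL-MaLR, ERVK, ERV1 and all repeats, by line. The ERVL bar is the highest of the families in WT (15.8%) and lower than the ERVL-MaLR bar in the other lines (71.6% against 89% in TRIM33-KO).

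Within ERVL, the counts and medians are given by kind of subfamily, and the kinds were not tested against each other. Of the 45 tested members named LTR, 2 rose in WT, 5 in DUXBL-KO, 16 in the first WT pLV2 line, 16 in TRIM24-KO, 26 in the second WT pLV2 line and 30 in TRIM33-KO, with medians from 0.11 in WT to 1.176 in TRIM33-KO. As shares these are 4.44%, 11.1%, 35.6%, 35.6%, 57.8% and 66.7%, each below the 8.97%, 29.3%, 61.2%, 56%, 71.8% and 77.4% of all tested repeats. Of the 15 MER subfamilies, 2, 4, 7, 6, 8 and 8 rose in that order, or 13.3%, 26.7%, 46.7%, 40%, 53.3% and 53.3%. Of the 10 other internal parts, 2, 3, 5, 4, 6 and 6 rose, or 20%, 30%, 50%, 40%, 60% and 60%. The 3 RMER repeats, which are rodent LTRs, rose in none of the plain lines and all rose in each pLV2 line, with RMER10A at -0.01 in WT and 1.08 in TRIM33-KO. The medians of the 6 relatives, 1.01, 1.44, 2.21, 3.002, 2.996 and 3.64, were above those of the LTR, MER, MLT2, RMER and internal groups in every line.

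Summed without MERVL and its relatives, the remaining ERVL subfamilies changed far less. They stood at 939 ± 56.4 CPM without DOX and 1056 ± 92.1 CPM with it in WT, and at 1018 ± 70.5 and 1312 ± 88.1 CPM in DUXBL-KO (SD, n = 2). In the pLV2 set they went from 662 ± 0.00918 to 985 ± 46.3 CPM in the first WT line, from 659 ± 12.4 to 1049 ± 152 CPM in TRIM24-KO, from 668 ± 26.7 to 1345 ± 106 CPM in the second WT line and from 709 ± 13.3 to 1829 ± 13.1 CPM in TRIM33-KO. These sums got no test.

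Of the 92 subfamilies tested in both sets, 15 rose in all 6 lines (16.3%) and 23 in none (25%). Of all 956 repeats tested in both sets, 9.21% rose in all 6 lines and 18.9% in none. The 15 were MERVL-int, MT2_Mm, MERVL_2A-int, MT2B1, MT2B2, MT2C_Mm, MLT2B1, MLT2E, ERVL-B4-int, ERV3-16A3_I-int, LTR16A1, LTR16E1, MER70A, MER77 and RLTR35B_MM. Since the WT comparison called 15 in all, every subfamily that rose in WT rose in the other 5 lines too, and lines of a set share the estimate of spread. The number that rose in all 6 lines is thus set by WT, where 2 rose without replicate 1 or 2 lacking DOX and 6 without replicate 1 with DOX. Among the less known of them, LTR16E1 went from 1.11 in WT to 3.32 in TRIM33-KO on the log2 scale, ERV3-16A3_I-int from 0.91 to 2.79, MER77 from 0.86 to 1.88 and MER70A from 2.47 to 4.99. MER70A had 2 to 10 counts in each library without DOX and 17 to 68 with it.

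The 23 that rose in none included MER21B, MER54A, HERVL40-int and LTR16B. MER21B stood at 54.6 and 52.4 CPM in WT without DOX and at 42.4 and 47.1 CPM with it, and at 31.8 and 29.1 against 32.6 and 29.8 CPM in TRIM33-KO. Its log2 fold changes lay between -0.26 and 0.17 over the 6 lines, and none passed the test. MER54A lay between -0.59 and 0.16, and its lowest value, in TRIM33-KO, had an adjusted p of 0.0527. These subfamilies were singled out after their values were seen.

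Of the tested members 3 fell, each in 1 line and each with few counts. In TRIM24-KO, LTR86C went from 30 and 28 counts to 8 and 7 (log2 fold change -1.17, SE 0.417, adjusted p = 0.0249), and HERVL74-int from 75 and 76 counts to 26 in each library (-0.75, SE 0.29, adjusted p = 0.0364). In TRIM33-KO, MER68B went from 52 and 43 counts to 15 in each library (-0.66, SE 0.286, adjusted p = 0.0452). None of these calls held with DESeq2, where adjusted p was 0.134, 0.0648 and 0.234. Each was also lost without TRIM24-KO or TRIM33-KO replicate 1 with DOX (adjusted p = 0.168, 0.312 and 0.23) and without replicate 1 lacking DOX (0.0893, 0.0928 and 0.217). The calls of LTR86C and MER68B were further lost without replicate 2 with DOX (0.0526 and 0.0864), and that of HERVL74-int without replicate 2 lacking DOX (0.0707).

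The comparison of the line labelled DUXBL-KO with WT asks whether losing DUXBL changes ERVL RNA. With DOX, MERVL-int was at 35550 ± 2670 CPM in DUXBL-KO and 16450 ± 9261 CPM in WT (SD, n = 2), and both DUXBL-KO libraries lay above both WT libraries. The log2 difference was 1.11 for MERVL-int (SE 0.343, adjusted p = 0.188, 95% interval 0.31 to 1.92), 0.99 for MT2_Mm (adjusted p = 0.202, interval 0.20 to 1.78) and 0.99 for MERVL_2A-int (adjusted p = 0.188, interval 0.37 to 1.61). None passed the adjusted threshold, although each interval, which is not adjusted, lay above 0. Without the filter on low counts all 3 passed, with adjusted p = 1.17e-20 for MERVL-int (1.10, SE 0.102), 1.2e-13 for MT2_Mm and 5.65e-11 for MERVL_2A-int. The MERVL-int difference hardly moved, while its SE went from 0.343 to 0.102. The pass thus rests on the estimate of spread, which the filter alters, and not on a larger difference. The 2 WT libraries with DOX differed by more than a factor of 2 in MERVL-int, and without replicate 1 of WT with DOX the differences were 1.84, 1.72 and 1.51, with an adjusted p of 0.0093 for each. Without replicate 2 of WT with DOX they were 0.63, 0.50 and 0.60 and missed the threshold. Dux RNA stood at 75 and 52 counts in DUXBL-KO with DOX against 23 and 20 in WT (log2 difference 1.64, adjusted p = 0.341), and the 7 markers of the 2-cell-like state summed to 2122 and 1393 CPM against 1776 and 727 CPM, with none called. The ES cell markers summed to 6147 and 5432 CPM against 5132 and 5123 CPM and the feeder markers to 21.6 and 29.3 CPM against 26.0 and 22.8 CPM, with 0 called in either list. Their part in the result was not tested.

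No ERVL subfamily was called in this comparison, as for 0% of all tested repeats, while 13 had an unadjusted p below the threshold (13.7% against 21.4% of all repeats). DESeq2 called 1, MERVL_2A-int (0.99, adjusted p = 0.0499). The median ERVL difference with DOX was 0.30, beside 0.28 for all repeats. Without DOX, MERVL-int differed by 0.56 (SE 0.343, adjusted p = 0.956, interval -0.25 to 1.36), with 0 ERVL subfamilies called against 0% of repeats and 0 at an unadjusted p below the threshold (0% against 4.49% of all repeats). The DOX effect itself differed by 0.55 for MERVL-int (SE 0.482, adjusted p = 0.998, interval -0.58 to 1.68), or by 0.07 without replicate 2 of WT with DOX and 1.28 without its replicate 1, with 0 called against 0% and 2 at an unadjusted p below the threshold (2.11% against 1.83% of all repeats). Without the filter on low counts, 9 ERVL subfamilies were called with DOX (8.11% against 11.3% of all repeats), 2 without it (1.8% against 1.97%) and 1 in the difference of the effects (0.901% against 0.358%). MERVL-int was among those called without DOX (0.57, SE 0.102 in place of 0.343, adjusted p = 5.43e-05), and the 1 in the difference of the effects was MERVL_2A-int (0.80, adjusted p = 0.00685). Duxbl1 counts did not fall in this line, so the direction rests on the label.

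The 2 WT lines of the pLV2 set carry the same label apart from the line number, and they differed with DOX. MERVL-int was at 50960 ± 8559 CPM in the second line and 18000 ± 2516 CPM in the first (SD, n = 2), a log2 difference of 1.502 (SE 0.159, adjusted p = 5.57e-06), or 2.83-fold. MERVL_2A-int differed by 1.35 (SE 0.126, adjusted p = 3.22e-06), MT2_Mm by 1.31 (adjusted p = 1.53e-05) and MT2B by 1.14 (SE 0.138, adjusted p = 1.53e-05). The second line was higher in each case, with no overlap.

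In all, 45 of 95 ERVL subfamilies were higher in the second WT line with DOX (47.4%) and none lower, against 54.6% of all repeats changed. The 45 included all 8 names of MERVL and its relatives, 9 of 10 MLT2 repeats, and 14 of 45 named LTR. On the scale set from repeats 14 were higher and 1 lower, or 16.1% against 17.5% of all repeats changed. The median was 0.52 for ERVL and 0.46 for all repeats. Dux RNA went the other way, at 58 and 53 counts in the second line against 95 and 110 in the first, a log2 difference of -0.89 (SE 0.235, adjusted p = 0.00773). All 7 markers of the 2-cell-like state were higher in the second line, with Zscan4c and Zfp352 at 1.51 and 1.61. Of the feeder markers 4 of the 5 tested were higher, and the 10 summed to 41.3 and 39.6 CPM in the second line and 23.1 and 25.8 CPM in the first, with 3 and 3 against 4 and 5 of them at 0. Of the 10 ES cell markers 2 were higher and 6 lower, and they summed to 4307 and 4323 CPM against 5326 and 5378 CPM. The part of these in the result was not tested, and with 2 lines of 1 genotype this gap is a measure of how far lines of the set can lie apart.

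The line labelled TRIM33-KO had the highest MERVL RNA with DOX. MERVL-int was at 82650 ± 10310 CPM (SD, n = 2), 2.73-fold above the mean of both WT lines (log2 difference 1.45, SE 0.13, adjusted p = 2.58e-07). MERVL_2A-int was 2.54-fold higher (1.35, SE 0.103, adjusted p = 7.71e-08) and MT2B1 2.23-fold (1.16, SE 0.106, adjusted p = 2.7e-07). MT2_Mm, MT2B, MT2B2, MT2C_Mm and MT2A were higher by 1.33, 1.20, 1.03, 1.01 and 0.86. Both TRIM33-KO libraries lay above all 4 WT libraries for MERVL-int. Replicate 2 of TRIM33-KO with DOX is a library with a large share of CT010467.1, and the SEs here may understate the spread of that group.

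With DOX 56 ERVL subfamilies differed between TRIM33-KO and WT (58.9%), all higher, against 68.4% of all repeats, with medians of 0.70 and 0.61. They were both MERVL names, all 6 relatives, 9 MLT2, 19 LTR, 7 MER, 3 RMER, 6 internal parts and 4 others. On the scale set from repeats, 15 were higher and 3 lower, or 19.4% against 29.4% of all repeats. Without DOX, MERVL-int was at 115 ± 18.3 CPM, a difference from WT of 0.01 (SE 0.137, adjusted p = 0.976, interval -0.28 to 0.30), and no ERVL subfamily was called against 2.07% of repeats, with 9 at an unadjusted p below the threshold (9.47% against 19.4% of all repeats) and 1 called by DESeq2.

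The DOX effect was larger in TRIM33-KO than in the mean of the WT lines by 1.44 for MERVL-int (SE 0.193, adjusted p = 0.000185), 1.24 for MERVL_2A-int (SE 0.155, adjusted p = 0.000185) and 1.37 for MT2_Mm (SE 0.199, adjusted p = 0.000192). In all, 29 ERVL subfamilies had a larger effect (30.5%) and none a smaller one, against 41% of repeats changed. On the scale set from repeats these were 6 and 1, or 7.53% against 5.49% of all repeats. The size depends on the WT line used. With DOX, MERVL-int was higher in TRIM33-KO by 2.20 against the first line (adjusted p = 1.69e-08) and by 0.70 against the second (SE 0.156, adjusted p = 0.00274). The DOX effect was larger by 2.43 against the first (adjusted p = 6.79e-06) and by 0.45 against the second (SE 0.222, adjusted p = 0.21), where MT2_Mm (0.53, adjusted p = 0.162), MERVL_2A-int (0.68, adjusted p = 0.065) and every other ERVL subfamily also missed the threshold. Against the second line alone 32 ERVL subfamilies were higher with DOX (33.7% against 45.4% of all repeats changed). Dux RNA with DOX did not pass the test between TRIM33-KO and WT (log2 difference 0.17, adjusted p = 0.593). All 7 markers of the 2-cell-like state were higher in TRIM33-KO with DOX, with a median log2 difference of 1.39, and they summed to 7330 and 6802 CPM against 1255 to 5129 CPM in the WT libraries. Of the 10 ES cell markers 2 were higher and 6 lower, and they summed to 4358 and 4228 CPM against 4307 to 5378 CPM. Of the 5 feeder markers tested 2 were higher, and the 10 summed to 36.5 and 38.6 CPM against 23.1 to 41.3 CPM. The part of these markers in the result was not tested.

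The line labelled TRIM24-KO lay between the 2 WT lines. With DOX, MERVL-int was at 27970 ± 6368 CPM (SD, n = 2), a difference of -0.11 from the mean of both WT lines (SE 0.135, adjusted p = 0.678, interval -0.40 to 0.17). MT2_Mm differed by -0.06, MERVL_2A-int by -0.17 and MT2B2 by 0.87 (adjusted p = 0.0951), and none passed the test. Against the first line alone MERVL-int was higher by 0.64 (SE 0.156, adjusted p = 0.0147), and against the second alone it was lower, at -0.87 (SE 0.157, adjusted p = 6.02e-04). The direction of the MERVL comparison thus depends on which WT line is taken. Dux RNA was called lower in TRIM24-KO with DOX, at 3.15 and 3.05 CPM against 3.95 to 8.32 CPM in the WT libraries. Of the 7 markers of the 2-cell-like state 3 were higher and 3 lower. Of the 10 ES cell markers 4 were higher and 4 lower, and of the 5 feeder markers tested 2 were lower. The part of these in the result was not tested.

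**Figure D4:**
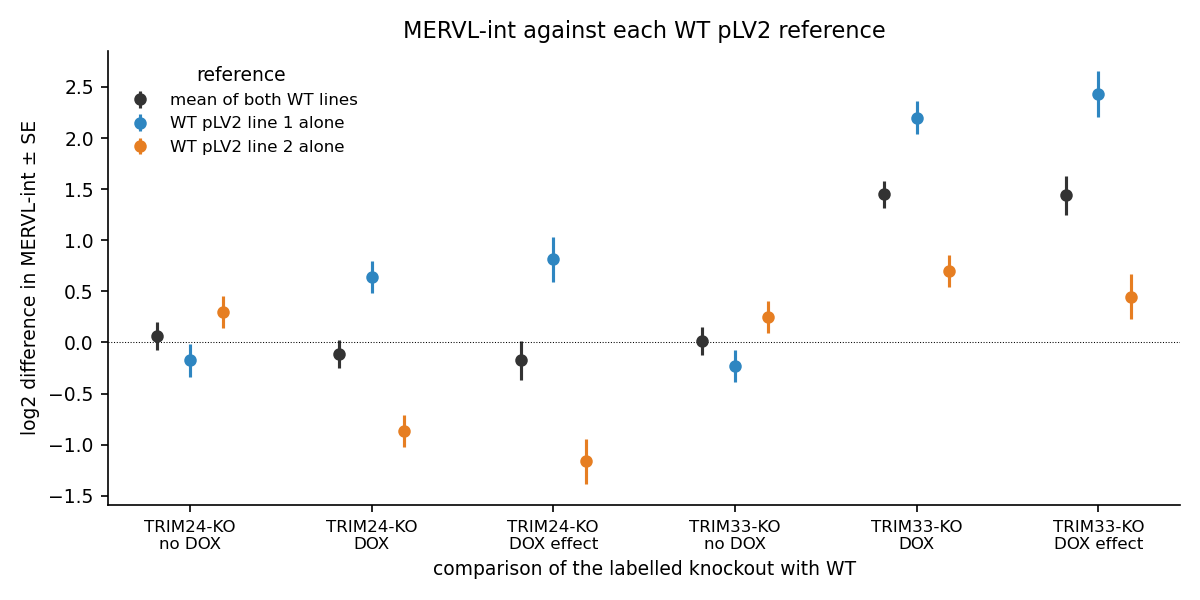
Log2 difference of MERVL-int, with its SE, of TRIM24-KO and TRIM33-KO from WT without DOX, with DOX and in the DOX effect, with both WT pLV2 lines, the first or the second as reference. For TRIM24-KO with DOX the value is 0.64 against the first line and -0.87 against the second, and for TRIM33-KO it is 2.20 and 0.70.

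Few ERVL subfamilies were called for TRIM24-KO, and none of them was MERVL or a relative. Without the filter on low counts MERVL-int (-0.14, SE 0.0386, adjusted p = 0.00361) and MERVL_2A-int (-0.20, adjusted p = 0.0212) were called lower with DOX. In the DOX effect MERVL-int (-0.24, adjusted p = 0.000593), MT2_Mm (-0.26, adjusted p = 0.00327) and MERVL_2A-int (-0.38, adjusted p = 0.0015) were called lower. The MERVL-int difference with DOX was close to that with the filter, but its SE was far smaller, so the pass rests on the estimate of spread. Without DOX 3 differed, against 5.8% of repeats: LTR86C (1.40, SE 0.318, adjusted p = 0.0115) and RLTR28 (0.36, adjusted p = 0.0353) were higher and RMER15 was lower (-0.29, adjusted p = 0.0353). The LTR86C and RLTR28 calls were lost without TRIM24-KO replicate 1 lacking DOX (adjusted p = 0.138 and 0.155), that of LTR86C also with DESeq2 (0.0668), that of RLTR28 also without replicate 2 (0.0937), with factors from repeats only (0.0931) and against the second WT line alone (0.0958), and that of RMER15 without any 1 of the 6 libraries compared (0.0773 to 0.306). MERVL-int without DOX differed by 0.06 (SE 0.137, adjusted p = 0.846, interval -0.23 to 0.35). With DOX and the first WT line alone as reference, 9 differed, all higher (9.47% against 11.4% of repeats). With the second alone 31 differed, 2 higher and 29 lower (32.6% against 37.6%). With DOX and the mean of both lines as reference, 5 differed, 2 higher and 3 lower, against 8.19% of repeats. The 3 with the smallest p were MER68 (0.78, SE 0.123, adjusted p = 3.93e-04), RMER15 (-0.28, adjusted p = 0.0364) and LTR33A_ (0.72, adjusted p = 0.0423). MER68 held its call without each library in turn (adjusted p at most 0.0197). RMER15 lost it without replicate 1 of TRIM24-KO (0.354), either library of the first WT line (0.0562 and 0.0976) or replicate 1 of the second (0.108). LTR33A_ lost it without replicate 1 or 2 of TRIM24-KO (0.0551 and 0.109), either library of the first WT line (0.0806 and 0.0959) or replicate 2 of the second (0.089).

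MER68, an old mammalian LTR, was the ERVL subfamily whose DOX effect differed in TRIM24-KO, 1 of 95 against 1.35% of repeats (0.81, SE 0.191, adjusted p = 0.0444). It went from 5.83 and 6.79 CPM to 26.8 and 23.1 CPM in TRIM24-KO, from 5.63 and 5.86 to 12.6 and 13.5 CPM in the first WT line and from 7.41 and 7.17 to 17.5 and 15.3 CPM in the second. The DOX libraries of TRIM24-KO lay above those of both WT lines. The call was lost against the first WT line alone (0.80, adjusted p = 0.165), with DESeq2 (adjusted p = 0.0521) and without any 1 library (adjusted p from 0.0578 to 0.207) other than TRIM24-KO replicate 2 with DOX and replicate 1 of the second WT line with DOX. Without TRIM24-KO replicate 2 with DOX, the library rich in CT010467.1, 11 ERVL subfamilies differed with DOX (11.5% against 18.5% of all repeats), 9 of them lower, and 16 in the DOX effect (16.7% against 27.2%), 15 of them lower, with MERVL_2A-int among these (-0.56, adjusted p = 0.0156).

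Most genes known to restrain MERVL did not pass the test with DOX. The lists were set with earlier results of these data known. Of 12 genes known to turn on MERVL or to mark the 2-cell state, 10 rose and none fell in each of the 6 lines, and Dppa4 and Gata2 did not pass. That count mostly repeats the induction: 7 of the 10 are the markers of the 2-cell-like state given above and 1 is Dux itself, which leaves Nelfa and Dppa2. Nelfa rose by 2.07 to 4.26 on the log2 scale over the lines and Dppa2, which binds the Dux promoter, by 0.73 to 1.69. Of 25 restraining genes, none was called in WT or DUXBL-KO.

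In the pLV2 set, 2 restraining genes rose and 3 fell in the first WT line, 4 rose and 1 fell in TRIM24-KO, 3 rose and 4 fell in the second WT line, and 5 rose and 7 fell in TRIM33-KO. Trim28, a corepressor that silences retroviral elements, rose by 0.24 in the first WT line (adjusted p = 0.0114), 0.40 in TRIM24-KO, 0.32 in the second WT line (adjusted p = 8.76e-04) and 0.50 in TRIM33-KO (adjusted p = 5.73e-06). Setdb1, the histone methyltransferase that acts with it, also rose in all 4. Pias4, a SUMO ligase, fell in all 4, and Dnmt1, the maintenance DNA methyltransferase, fell in TRIM33-KO. The share of these genes that changed can be set beside the 9.96% to 16.4% of all genes that rose and the 4.88% to 20% that fell in these lines.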

How the data were processed

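The authors deposited 1 table of raw counts per library, whose rows are genes and repeat subfamilies, per the file headers. Libraries were rRNA-depleted, directional and read in pairs of 75 bp, per the labels' protocols. The submitters' processing notes name bcl2fastq 2.20.0, cutadapt 1.18, STAR 2.7.6a and mm10. The counting tool and its handling of multi-mapping reads are not given in the sources used here, and near-identical subfamilies can share reads. Counts were tested with edgeR 4.0.16 (quasi-likelihood, with limma 3.58.1 and R 4.3.3), library sizes and TMM factors from genes, filterByExpr by group (minimum count 10) and Benjamini-Hochberg adjustment over tested repeats. The code was also run on simulated counts with the same spread for every feature and group. Such counts cannot show how the test fares with the uneven spread of these libraries. The plain (8 libraries) and pLV2 (16 libraries) sets were fitted apart. DESeq2 1.42.0 was an alternative. The reference for pLV2 knockouts was the mean of the WT lines. Named subfamilies were all MERVL and MT2 names, the 3 largest other rises with a mean of at least 50 counts and up to 3 falls per DOX comparison, and the 3 smallest p elsewhere. Members and lists were chosen with earlier results of these data known.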

Additional observations from a re-analysis of the deposited data

Results flagged for a closer look

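In 4 subfamilies the DOX effect differed between lines by a test of the difference itself, an interaction term in edgeR. Between the line labelled TRIM33-KO and the mean of both WT pLV2 lines the effect differed by 1.438 for MERVL-int, 1.244 for MERVL_2A-int and 1.365 for MT2_Mm on the log2 scale. For each of these the difference was 0.45 to 0.68 and missed the threshold against the second WT line alone. Between the line labelled TRIM24-KO and the WT lines the effect on MER68 differed by 0.8146 (SE 0.191, adjusted p = 0.0444), and that call was lost under most of the settings that leave out 1 library.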

How the results depend on the processing

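The MERVL-int and MT2_Mm rises with DOX kept their direction and passed the threshold in all 6 lines under each of 13 alternatives, with log2 fold changes of MERVL-int from 6.11 to 7.32 in WT and from 8.27 to 9.68 in TRIM33-KO. With factors from repeats only, 9 ERVL subfamilies rose in WT (9.28% against 5.08% of all repeats), 16 in DUXBL-KO (16.5% against 11.8%), 26 in the first WT pLV2 line, 29 in the second, 25 in TRIM24-KO and 32 in TRIM33-KO. On that scale 18 differed between TRIM33-KO and WT with DOX, 7 in the TRIM33-KO DOX effect and 15 between the WT lines. MERVL-int without DOX differed by -0.0281 for TRIM24-KO and -0.1255 for TRIM33-KO. The causes of such shifts were not tested.

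Without the filter on low counts, 2, 9 and 1 ERVL subfamilies differed for DUXBL-KO without DOX, with DOX and in the DOX effect, 11, 16 and 10 for TRIM24-KO, and 5 for TRIM33-KO without DOX. The shares of all repeats were 1.97%, 11.3% and 0.358%, 14.4%, 14.9% and 10.6%, and 14.8% in that order. With p-values adjusted over genes and repeats together, 8 rose in WT, 6, 11 and 0 differed for TRIM24-KO without DOX, with DOX and in the effect, 3 for TRIM33-KO without DOX and 13 in its effect, against 5.1%, 13.4%, 14.8%, 1.14%, 8.19% and 20.8% of all repeats. With only the compared groups in the fit, 5 rose in WT, and 1 differed for TRIM24-KO with DOX and 1 for TRIM33-KO without DOX, against 3.6%, 4.63% and 7.71%. DESeq2 called 1 for DUXBL-KO with DOX, 3 and 0 for TRIM24-KO with DOX and in the effect, and 1 for TRIM33-KO without DOX, against 0.51%, 7.05%, 2.8% and 3.42%. Leaving out CT010467.1 gave 1 for TRIM33-KO without DOX, against 3.7%.

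Against the first WT pLV2 line alone, TRIM24-KO differed in 9 ERVL subfamilies with DOX and 0 in the effect, and TRIM33-KO in 5 without DOX, against 11.4%, 0.518% and 13.4% of all repeats. MERVL-int then reversed to -0.1762 for TRIM24-KO and -0.2272 for TRIM33-KO without DOX. For TRIM24-KO with DOX, MERVL-int, MT2_Mm and MERVL_2A-int reversed to 0.6361, 0.5963 and 0.5003, and in the effect to 0.8123, 0.6268 and 0.2474. Against the second line alone, TRIM24-KO differed in 31 with DOX and 12 in the effect, and TRIM33-KO in 32 with DOX and 0 in the effect, against 37.6%, 14.2%, 45.4% and 0.104% of all repeats (ERVL 32.6%, 12.6%, 33.7% and 0%).

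Leaving out each library in turn gave 2 to 19 ERVL subfamilies that rose in WT and 14 to 31 in DUXBL-KO. It gave 0 to 5 that differed between DUXBL-KO and WT with DOX, 0 to 2 for TRIM24-KO without DOX, 1 to 11 with DOX and 0 to 16 in the effect, and 0 to 1 for TRIM33-KO without DOX. The lowest WT counts came without WT replicate 1 or 2 lacking DOX (2 each) and replicate 1 with DOX (6). The 5 for DUXBL-KO came without WT replicate 1 with DOX, and the 11 and 16 for TRIM24-KO without its replicate 2 with DOX. The difference in MERVL-int without DOX ranged from -0.05071 to 0.2069 for TRIM24-KO, reversed without its replicate 2, and from -0.1379 to 0.1858 for TRIM33-KO, reversed without its replicate 1 or, at -0.004153, the second WT line's replicate 2. For TRIM24-KO with DOX, MERVL-int ranged from -0.3511 to 0.08591 and MT2_Mm from -0.2659 to 0.1234. All reversed values here missed the threshold.

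Taking MERVL-int alone as MERVL, its share of ERVL counts was 8.121% without and 71.03% with DOX for WT, 10.58% and 75.62% for DUXBL-KO, 10.95% and 68.11% for the first WT pLV2 line, 7.790% and 72.59% for the second, 9.498% and 69.50% for TRIM24-KO, then 8.811% and 73.22% for TRIM33-KO. With every MERVL and MT2 name the shares were 47.13% and 94.77%, 48.95% and 97.20%, 46.10% and 96.25%, 46.09% and 98.07%, 47.22% and 97.36%, and 45.53% and 98.37%.

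With the replicate number as a block, 16 ERVL subfamilies rose in WT, 34 in DUXBL-KO, 52 and 63 in the WT pLV2 lines, 49 and 69 in the lines labelled TRIM24-KO and TRIM33-KO, and 4 differed for TRIM24-KO with DOX. The block changed no other count and 1 of 102 calls for single subfamilies, that of MER68B in TRIM33-KO (adjusted p = 0.0501). Deviations of same-numbered libraries correlated at 0.311 to 0.685 over pairs of plain groups and at -0.0662 to 0.287 in the pLV2 set. Same-numbered plain libraries thus deviated together, but with 2 numbers a group and no label that ties them the numbers were not taken as pairs. Over all settings, 1329 of 1468 values for single subfamilies kept their direction and their side of the threshold, and 17 reversed. The precision is limited by 2 libraries a group and, in many older subfamilies, by few counts.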
